A study of Mus musculus with 6 samples.

Results

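The T-box genes Tbx2, Tbx3 and Tbx18 were followed in RNA-seq of mesonephroi from male mouse embryos at embryonic day 16.5. The 3 genes were chosen by name and each had a row in the table of 14366 genes. The mesonephros at this age holds the Wolffian duct and its mesenchyme, from which the epididymis forms, and the dissection kept the mesonephric tubule region. The 3 control samples had the genotype Osr2Cre+;Gata2-flox/+ and the 3 Gata2cKO samples had Osr2Cre+;Gata2-flox/flox. Cre was therefore present in both groups, and controls also carried 1 floxed Gata2 allele. Cre was driven by Osr2, a gene of the mesenchyme, so that cells that never made this Cre keep Gata2 in either group. The study addresses the role of Gata2 in the mesenchyme beside the duct. Nothing in the labels tells if the 3 samples per genotype were different embryos, different litters or pools, and a p-value here reflects sample-to-sample spread, which may be technical. Levels are in TPM (a measure of transcript level corrected for the length of the gene and for the size of the library), which keep no read depth, so the counting error is unknown.

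T-box proteins are transcription factors that share a DNA-binding domain, the T-box, which recognises elements built around the letters CACACC. TBX2 and TBX3 are close relatives that mainly repress transcription. In the mesenchyme of other branching or tubular organs of the mouse, such as the lung and the ureter, they keep cells dividing and act downstream of hedgehog or Wnt signals. TBX18 is also a repressor and is known from the mesenchyme of the ureter, where it separates smooth muscle precursors from neighbouring cells, and from the epicardium.

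Tbx2 and Tbx3 were abundant in the mesonephros and Tbx18 was close to the bottom of the table. Tbx3 was lower in all 3 Gata2cKO libraries than in all 3 controls (1.26-fold by the means), but did not pass the test across all genes. Tbx2 overlapped between the groups. By mean TPM in controls Tbx2 ranked 264 and Tbx3 649 of 14366 genes, while Tbx18 ranked 13675. Together Tbx2 and Tbx3 made up 94.9% to 95.4% of the summed TPM of all T-box genes with a row, in each of the 6 libraries. In bulk tissue, fewer cells of a type and less RNA per cell cannot be told apart.

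**Figure D1:**
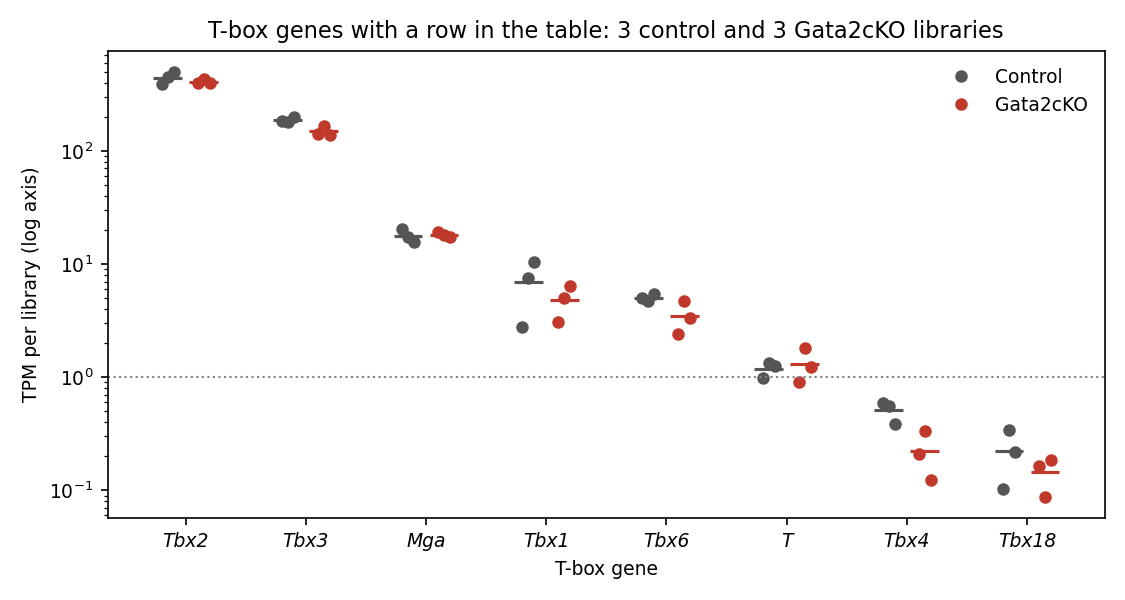
TPM of the 8 T-box genes with a row, on a log axis, with 1 point per library (grey for control, red for Gata2cKO), short lines at the group means and a dotted line at 1 TPM. Tbx2 and Tbx3 lie above 100 TPM in all 6 libraries and Tbx18 lies below 0.5 TPM in all 6.

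Tbx2 (ENSMUSG00000000093.6, a protein-coding gene on the plus strand of chromosome 11 from 85832551 to 85841948, GRCm38) stood at 386, 445 and 497 TPM in control replicates 1, 2 and 3 and at 397, 429.66 and 398 TPM in Gata2cKO replicates 1, 2 and 3. The groups overlapped because control replicate 1 lay below all 3 Gata2cKO libraries, while control replicates 2 and 3 lay above them. The group means were 443 ± 55.5 and 408 ± 18.7 TPM (SD, n = 3 each). On the log2(TPM + 1) scale, used for all log2 fold changes (Gata2cKO minus control), the difference was -0.11 (SE 0.11, limma adjusted p = 0.541), with a 95% interval from -0.36 to 0.14. The authors' deposited table gives Tbx2 a log2 fold change of -0.18 and an adjusted p of 0.259. The data therefore did not resolve a difference in Tbx2, and the interval leaves room for a decrease of up to 0.36 on the log2 scale.

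Tbx3 (ENSMUSG00000018604.18, protein-coding, plus strand of chromosome 5 from 119670669 to 119684724, GRCm38) stood at 184, 179.85 and 197 TPM in control replicates 1, 2 and 3 and at 141, 167 and 137 TPM in Gata2cKO replicates 1, 2 and 3. All 3 Gata2cKO values lay below all 3 control values, with Gata2cKO replicate 2 the nearest to the controls. Groups that did not overlap were found for 33.9% of the 12300 tested genes (10.5% with Gata2cKO lower). The means were 187 ± 9.26 and 148 ± 16.2 TPM (SD, n = 3 each), and that of Gata2cKO was 1.26-fold lower. The log2 fold change was -0.34 (SE 0.10, 95% interval from -0.56 to -0.11), with an unadjusted limma p of 0.00915 and an adjusted p of 0.0773. The call depended on how libraries were scaled and tested. The authors' deposited table gives Tbx3 a log2 fold change of -0.40 and an adjusted p of 0.000513, where 6.58% of its 14366 genes were lower at an adjusted p under 0.05. With median-of-ratios scaling of the TPM the limma adjusted p for Tbx3 was 0.0350 (log2 fold change -0.40).

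Control replicate 1 differed from the other libraries, with 21.9% of its TPM from mitochondrially encoded genes against 13.2% to 16.3% elsewhere. Its summed globin level was 18277 TPM against 6868 to 13821 TPM in the other 5, and it had the highest score on the second principal component. Mitochondrial transcripts lower the TPM of every other gene in a library. With TPM rescaled after removal of the mitochondrial genes, Tbx2 stood at 495.77, 532 and 581 in control replicates 1, 2 and 3 and at 468, 495.38 and 461 in Gata2cKO replicates 1, 2 and 3. On that scale control replicate 1 and Gata2cKO replicate 2 were nearly equal, the groups were separate only by that margin and Tbx2 did not pass (log2 fold change -0.17, limma adjusted p = 0.236). Tbx3 stood on the same scale at 236, 215 and 230.49 in controls and at 166, 192 and 159 in Gata2cKO, and passed (log2 fold change -0.40, limma adjusted p = 0.0449). Without control replicate 1, on the deposited TPM, the log2 fold changes were -0.21 for Tbx2 (limma adjusted p = 0.128) and -0.35 for Tbx3 (limma adjusted p = 0.0639). Over the 6 removals of 1 library the adjusted p of Tbx3 ranged from 0.0576 to 0.243, with a log2 fold change between -0.42 and -0.28.

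**Figure D2:**
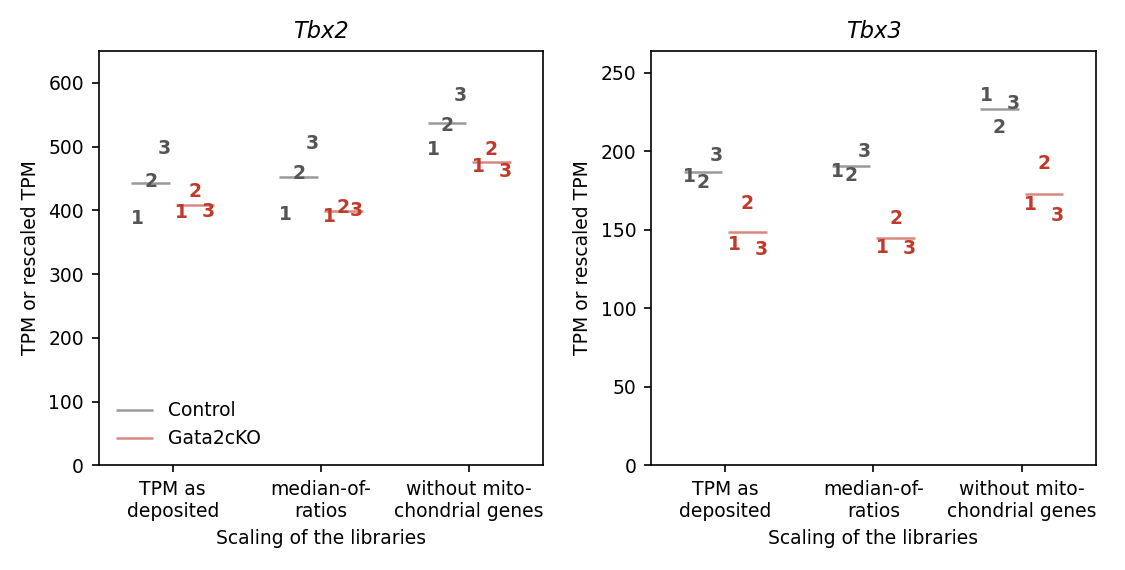
Level of Tbx2 (left) and Tbx3 (right) in each library, drawn as its replicate number (grey for control, red for Gata2cKO), for TPM as deposited, after median-of-ratios scaling and after removal of mitochondrial genes, with lines at the group means. Control replicate 1 is the lowest control for Tbx2 on all 3 scales, and the 3 Gata2cKO values of Tbx3 lie below the 3 control values on all 3 scales.

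**Figure D3:**
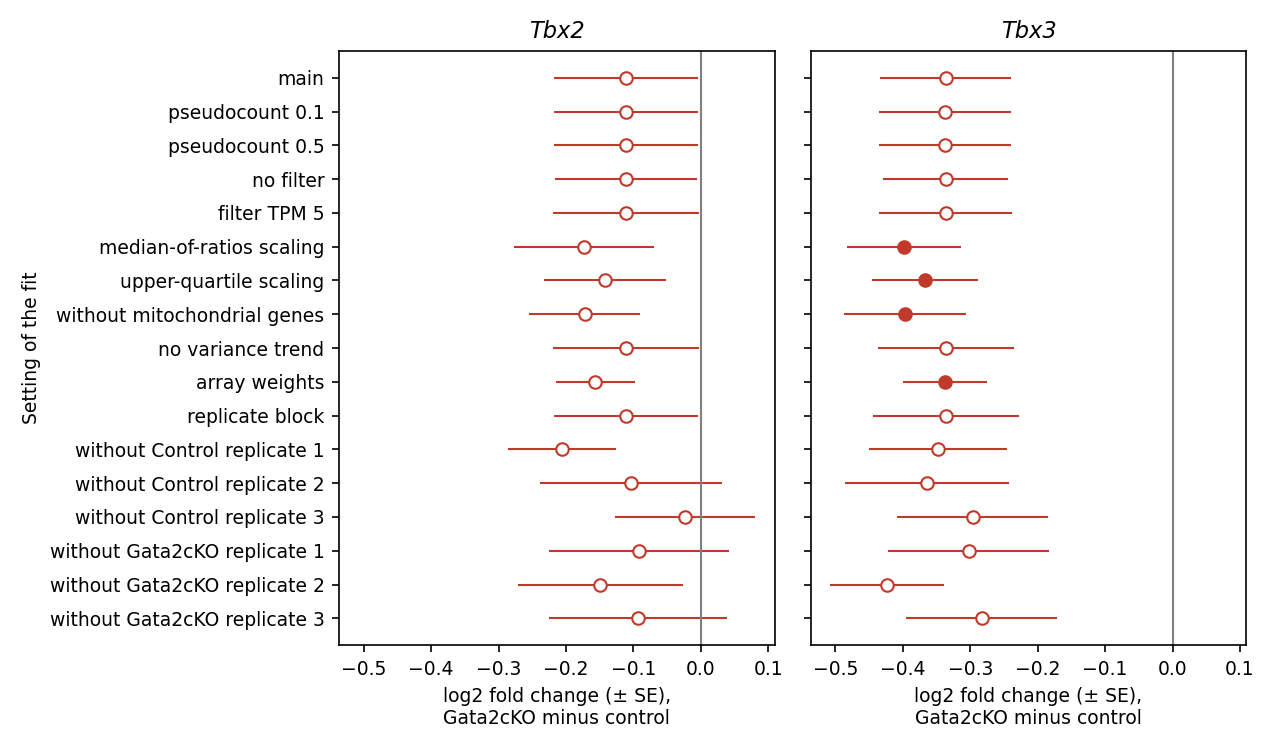
Log2 fold change of Tbx2 (left) and Tbx3 (right), Gata2cKO minus control, with its SE, under the main setting and 16 alternatives, where filled points have a limma adjusted p under 0.05. Every estimate is negative. For Tbx3 the 3 scaling settings and array weights are filled, and for Tbx2 none is.

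The balance between the relatives was compared within each library, where the scaling cancels apart from the pseudocount. The TPM of Tbx2 was 2.10, 2.47 and 2.52 times that of Tbx3 in control replicates 1, 2 and 3 and 2.82, 2.57 and 2.90 times in Gata2cKO replicates 1, 2 and 3. All 3 Gata2cKO ratios lay above all 3 control ratios. On the log2(TPM + 1) scale the ratio was 1.23 ± 0.14 in controls and 1.46 ± 0.09 in Gata2cKO (SD, n = 3 each), a difference of 0.22. The exact two-sided permutation test gave p = 0.1, the smallest that 3 against 3 libraries can give, or 0.3 adjusted over the 3 ratios computed between the members. The ratios of Tbx2 and of Tbx3 to Tbx18 differed by -0.02 and -0.25 between the groups (exact permutation p = 0.7 and 0.2), and rest on a Tbx18 value near 0.

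Tbx18 (ENSMUSG00000032419.8, protein-coding, minus strand of chromosome 9 from 87702800 to 87731260, GRCm38) was listed at 0.102, 0.340 and 0.220 TPM in control replicates 1, 2 and 3 and at 0.165, 0.0881 and 0.184 TPM in Gata2cKO replicates 1, 2 and 3. The groups overlapped, and no library reached 1 TPM, so the gene was left out of the test. Means were 0.221 ± 0.119 and 0.146 ± 0.0507 TPM (SD, n = 3 each), and the authors' deposited table gives an adjusted p of 0.621. Other genes of urogenital mesenchyme were present in the same libraries: Tcf21 was at 766 ± 63.2 TPM in controls. Tbx18 is the member whose promoter is in the RefSeq table used here, so it is shown (GRCm38.p6, chr9:87731211-87731510, minus strand, 250 bases before to 50 after the start).
Tbx18: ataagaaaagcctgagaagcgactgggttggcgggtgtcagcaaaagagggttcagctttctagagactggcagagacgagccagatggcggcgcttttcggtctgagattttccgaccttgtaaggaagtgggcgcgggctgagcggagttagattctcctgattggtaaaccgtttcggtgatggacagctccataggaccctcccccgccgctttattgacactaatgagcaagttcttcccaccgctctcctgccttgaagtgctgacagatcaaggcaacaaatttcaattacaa
It holds neither CACACC nor its reverse complement GGTGTG, nor the GATA letters GATAA or their reverse complement TTATC. Of 32851 promoters of the same length, 19% held the first pair and 25.4% the second. The promoters of Tbx2 and Tbx3 are not analysed here.

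The rest of the family was written as a list of 17 genes, of which 8 had a row and 6 could be tested. The other 9 are not analysed here. None of the 6 passed by limma, where 7.47% of the 12300 tested genes did (5.73% higher and 1.74% lower in Gata2cKO). At an unadjusted p under 0.05 there were 2, Tbx3 and Tbx6, both lower, where 27.4% of tested genes reached that level and 8.17% did so with Gata2cKO lower. The authors' deposited table calls Tbx3 alone among the 8, and 13.3% of all its genes. Tbx3 was also the 1 T-box gene called under each of 3 other scalings. Median-of-ratios scaling called 7.27% of genes (3.98% higher, 3.29% lower), upper-quartile scaling 7.83% (5.05% higher, 2.77% lower) and removal of mitochondrial genes 5.74% (3.49% higher, 2.26% lower). Limma with array weights called Tbx1, Tbx3 and Tbx6, but also 38.6% of all genes. The median log2 fold change of the 6 was -0.22, beside 0.05 for all tested genes. In controls the order of mean TPM was Tbx2, Tbx3, Mga, Tbx1, Tbx6, T, Tbx4 and Tbx18. The ranges of Tbx1 and Tbx6 overlapped in both groups, as did those of Tbx4 and Tbx18 in Gata2cKO, while the other neighbours in this order did not overlap in controls.

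Mga, which encodes a T-box protein that also partners MAX, overlapped between the groups at 17.8 ± 2.49 and 18.2 ± 1.07 TPM (SD, n = 3 each; limma adjusted p = 0.875). Its log2 fold change was 0.03, with a 95% interval from -0.22 to 0.29. Tbx6, a factor of early mesoderm and somite formation, stood at 4.99, 4.74 and 5.43 TPM in controls and at 2.43, 4.67 and 3.34 TPM in Gata2cKO. The groups were separate by a narrow margin, and the test did not pass (log2 fold change -0.46, SE 0.17, limma adjusted p = 0.137). Tbx1, known from the pharyngeal region, was at 2.76, 7.46 and 10.4 TPM in controls and at 3.07, 4.96 and 6.38 TPM in Gata2cKO. Control replicate 1 was the lowest of the 6, and without it the log2 fold change of Tbx1 moved from -0.34 to -0.80 (limma adjusted p = 0.0694). Without control replicate 3, the highest of the 6, it was -0.0022 (limma adjusted p = 0.997). T, which encodes brachyury, a factor of the notochord and primitive streak, was at 1.19 ± 0.181 and 1.31 ± 0.454 TPM.

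Genomic neighbours of the members were low. Tbx4, a limb and lung T-box gene, lies 44473 bases beyond Tbx2 on the same strand of chromosome 11. It was listed at 0.588, 0.556 and 0.389 TPM in controls and at 0.211, 0.338 and 0.124 TPM in Gata2cKO, all under the level needed for a test (adjusted p = 0.101 in the authors' deposited table). Bcas3, on the other side of Tbx2 at 6492 bases, was at 0.450 ± 0.0322 and 0.417 ± 0.00600 TPM (SD, n = 3 each). The nearest genes with a row on either side of Tbx3 were Med13l, a subunit gene of the Mediator kinase module, and Rbm19, which encodes an RNA-binding protein. Both are distant, at 905230 and 431740 bases from Tbx3. These were at 4.599 ± 0.266 and 2.64 ± 0.140 TPM in controls, and at 3.73 ± 0.614 and 2.56 ± 0.0900 TPM in Gata2cKO, and did not pass (limma adjusted p = 0.198 and 0.834). Those around Tbx18 were Cep162 and Nt5e, at 447263 and 595936 bases from it (limma adjusted p = 0.545 and 0.396). Tbx3 overlaps the antisense gene Tbx3os1, which is not analysed here, by 697 bases. Tbx18 likewise overlaps a predicted transcript on the opposite strand by 1976 bases. Use of strand in counting was not given in the sources used here, and reads from such overlaps cannot be told apart.

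Genes reported as repressed by TBX2 or TBX3 in other mouse tissues or in cultured cells were written as a list of 11, of which 8 could be tested. Of these 2 rose and 0 fell, beside 5.73% and 1.74% of all tested genes, and removal of single libraries left between 1 and 3 that rose. In 4 of the 8 all Gata2cKO libraries lay above all controls, where 23.4% of tested genes did so. Ndrg1, a stress- and differentiation-related gene, was at 5.55, 5.88 and 5.62 TPM in control replicates 1, 2 and 3 and at 10.3, 9.64 and 9.16 TPM in Gata2cKO replicates 1, 2 and 3. The groups were far apart relative to their spread, and Ndrg1 rose 1.71-fold (log2 fold change 0.68, SE 0.08, limma adjusted p = 0.00971). Gja1, the gap junction gene connexin 43, was at 67.6, 78.7 and 79.3 TPM in controls and between 100.50 and 100.69 TPM in Gata2cKO. It rose 1.34-fold (log2 fold change 0.42, SE 0.09, limma adjusted p = 0.0318). Ndrg1 kept its call whichever of the 6 libraries was removed. Gja1 kept it in 1 of the 6 removals (adjusted p = 0.123 without Gata2cKO replicate 1) and missed it with median-of-ratios scaling (limma adjusted p = 0.0522). The most abundant member was Cdkn1b, a cell cycle inhibitor gene, at 125 ± 9.61 and 136 ± 1.92 TPM (SD, n = 3 each; limma adjusted p = 0.375). All 8 tested members had a positive log2 fold change on the TPM as deposited, where 59.5% of all tested genes did. They also did under median-of-ratios scaling, upper-quartile scaling and removal of mitochondrial genes, where 49.4%, 54.5% and 49.6% of genes did. Their median was 0.35, beside 0.05 for all. This list, like the others, was chosen with earlier results of these data known, so the shared direction is a description and not a test. The authors' deposited table calls 4 members higher and 0 lower, where it calls 6.69% of its genes higher. Cdh1 is on the list of duct epithelium too, whose summed level was between 761 and 857 TPM in controls and between 983 and 999 TPM in Gata2cKO, and its part in this list was not tested.

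The promoters of Cdkn1a, the cell cycle inhibitor gene p21 on which TBX2 acts in mouse lung, and of Gja1 are printed because a window of the first holds the T-box letters and that of the second, which rose, does not. The upstream of the Cdkn1a start sites in the table (chr17:29090729-29091028, plus strand) holds none and is not printed. Cdkn1a was chosen after its values were seen. Capitals mark CACACC or GGTGTG in Cdkn1a and GATAA or TTATC in Gja1. The windows are Cdkn1a, the downstream of its start sites in the table (chr17:29093519-29093818, plus strand), and Gja1 (chr10:56377050-56377349, plus strand), both from RefSeq on GRCm38.p6.
Cdkn1a: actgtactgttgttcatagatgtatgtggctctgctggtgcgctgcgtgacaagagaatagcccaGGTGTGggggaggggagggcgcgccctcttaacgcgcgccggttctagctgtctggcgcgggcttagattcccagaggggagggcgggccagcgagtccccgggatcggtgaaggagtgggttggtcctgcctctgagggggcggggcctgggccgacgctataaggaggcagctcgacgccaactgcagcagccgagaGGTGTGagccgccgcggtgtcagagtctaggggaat
Gja1: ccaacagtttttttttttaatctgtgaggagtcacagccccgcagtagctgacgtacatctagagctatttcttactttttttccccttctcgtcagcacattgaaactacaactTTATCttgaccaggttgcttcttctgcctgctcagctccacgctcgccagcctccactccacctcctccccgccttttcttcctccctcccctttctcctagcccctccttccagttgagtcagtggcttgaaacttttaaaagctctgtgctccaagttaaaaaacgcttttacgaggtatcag
The T-box letters begin at positions 66 and 265 of the Cdkn1a window, and the GATA letters at position 116 of the Gja1 window. Cdkn1a was at 34.2, 28.4 and 34.7 TPM in controls and at 34.2, 39.0 and 37.8 TPM in Gata2cKO. The groups overlapped and Cdkn1a did not pass (log2 fold change 0.19, limma adjusted p = 0.280). Over the list 8 of 11 genes had a promoter entry, with 10 windows, of which 4 held the T-box letters, as did 19% of all promoters in the table. These 4 were the Cdkn1a window printed above and windows of Cdkn2a, Frzb and Nppa. Cdkn2a and Nppa had no row, so no level goes with their windows. Frzb was at 1.38 ± 0.289 and 1.87 ± 0.0202 TPM (SD, n = 3 each) and did not pass (log2 fold change 0.28, limma adjusted p = 0.144). Its Gata2cKO libraries all lay above its controls, as for 23.4% of tested genes. The GATA letters were in 2 of the 10 windows and in 25.4% of all promoters. A match describes letters in this window and shows no binding.

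Hedgehog signalling reaches Tbx2 and Tbx3 in mesenchyme of other organs. Among the hedgehog genes listed, Gli1 fell past the limma threshold. Ptch1 and Hhip, named after their values were seen, overlapped between the groups. Neither passed (log2 fold change -0.32 and -0.12, limma adjusted p = 0.251 and 0.533). Of 13 tested hedgehog genes 1 fell and 1 rose, where 1.74% of all tested genes fell and 5.73% rose. Gli1, a transcription factor gene that is itself induced by the pathway, was at 215, 230.48 and 267 TPM in control replicates 1, 2 and 3 and at 149.97, 179.55 and 129.87 TPM in Gata2cKO replicates 1, 2 and 3. Gata2cKO replicate 2 was the highest of its group, as for Tbx3 but also for Gata2, and a link between these genes was not tested. Gli1 fell 1.55-fold (log2 fold change -0.64, SE 0.14, limma adjusted p = 0.0350), and kept its call in 2 of the 6 removals of a library (limma adjusted p = 0.124 without Gata2cKO replicate 1). Cdon, a hedgehog co-receptor gene, rose 1.46-fold, with means of 26.4 ± 1.02 and 38.5 ± 0.716 TPM (limma adjusted p = 0.0119), and kept its call in 5 of the 6 (0.0640 without Gata2cKO replicate 1). The most abundant member was the co-receptor gene Gas1, at 2064 ± 340 and 2514 ± 169 TPM (limma adjusted p = 0.210). The ligand gene Shh, named after its values were seen, was at 10.4 ± 3.72 and 9.46 ± 0.904 TPM (limma adjusted p = 0.854). The authors' deposited table calls 6 of the 13 lower and 1 higher, where it calls 6.58% of all its genes lower and 6.69% higher. Ptch1 is among these 6 and Hhip is not.

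BMP and Wnt signals also regulate T-box genes in other tissues. Of 15 tested BMP genes 1 fell and 1 rose, beside 1.74% and 5.73% of all tested genes, so these counts are not far from those of all genes. The authors' deposited table calls 2 of the 17 with a row higher and 2 lower, where it calls 6.69% of all its genes higher and 6.58% lower. Bmp2, a ligand gene known to induce Tbx2 in the heart, fell 1.97-fold, with means of 20.7 ± 3.84 TPM in controls and 10.5 ± 1.16 TPM in Gata2cKO (log2 fold change -0.91, limma adjusted p = 0.0175). It kept its call in 2 of the 6 removals of a library (0.0714 without Gata2cKO replicate 1). Id2, a target gene of BMP signals, rose 1.46-fold, with means of 416 ± 2.17 and 608 ± 33.8 TPM (limma adjusted p = 0.0128), and kept its call in 4 (0.0704 without Gata2cKO replicate 1). The most abundant member was the target gene Id3, at 993 ± 169.70 and 1310 ± 82.5 TPM (limma adjusted p = 0.106). Bmp4, a ligand gene named after its values were seen, was at 48.6 ± 8.90 and 31.98 ± 4.20 TPM, and passed with median-of-ratios scaling (limma adjusted p = 0.0600 as deposited and 0.0402 so scaled). Of 14 tested Wnt genes 2 rose and 1 fell, beside 5.73% and 1.74% of all tested genes. The ligand gene Wnt7b had means of 2.11 ± 0.319 TPM in controls and 5.17 ± 0.109 TPM in Gata2cKO and rose (limma adjusted p = 0.00549). Wnt9b, another ligand gene, rose as well (8.84 ± 1.53 against 12.9 ± 0.658 TPM, limma adjusted p = 0.0454). Wnt5a, a ligand gene of mesenchyme, fell (261 ± 24.9 against 181 ± 15.7 TPM, limma adjusted p = 0.0284). Wnt7b kept its call in all 6 removals. Wnt9b and Wnt5a kept theirs in 1 each (0.143 and 0.105 without Gata2cKO replicate 3), and Wnt9b missed it with median-of-ratios scaling (limma adjusted p = 0.0645). The most abundant member was Ctnnb1, which encodes beta-catenin, at 308 ± 26.0 and 360.38 ± 5.32 TPM (limma adjusted p = 0.142).

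Among 17 tested corepressor and chromatin genes 1 passed, where 7.47% of all tested genes did, so the share is near that of all genes. The gene was the Groucho family corepressor gene Tle2, which fell, with means of 47.3 ± 1.82 TPM in controls and 34.3 ± 1.41 TPM in Gata2cKO (log2 fold change -0.45, limma adjusted p = 0.0181). Its call was kept in 2 of the 6 removals of a library (0.0900 without Gata2cKO replicate 1). The most abundant of the 17 was Trim28, at 187 ± 11.6 and 197 ± 23.2 TPM (limma adjusted p = 0.712). The authors' deposited table calls 4 of the 17 lower and 0 higher, where it calls 6.58% of all its genes lower and 6.69% higher. Among 20 tested transcription factors of urogenital mesenchyme 6 fell and 2 rose, beside 1.74% and 5.73% of all tested genes. Tcf21 fell 1.70-fold, Osr2 2.06-fold, Nr2f1 1.99-fold, Tshz3 1.90-fold and Nr2f2 1.39-fold, while Foxc2 rose 2.83-fold (limma adjusted p = 0.00856, 0.0136, 0.0156, 0.0250, 0.0291 and 0.0243). Tshz3, a zinc finger gene needed for smooth muscle of the mouse ureter, was at 14.3, 20.8 and 13.6 TPM in controls and at 8.13, 9.12 and 8.38 TPM in Gata2cKO. Tcf21 kept its call in all 6 removals, Osr2 in 4, Nr2f1, Tshz3 and Foxc2 in 3 and Nr2f2 in 1. Their highest adjusted p came without Gata2cKO replicate 1 (0.0605 for Osr2, 0.0657 for Nr2f1, 0.0972 for Tshz3 and 0.123 for Nr2f2), or replicate 3 for Foxc2 (0.0930). Without Gata2cKO replicate 1 the number of tested genes past the threshold was 116 in place of 919. Gata2, the targeted gene, was at 465 ± 81.2 and 459 ± 61.9 TPM (limma adjusted p = 0.968). Since the value covers the whole gene, loss of a floxed stretch cannot be read from it, and the labels are not checked by it.

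Marker lists of the cells that the dissection could hold are given by their counts past the limma threshold, which 5.73% of all tested genes passed with Gata2cKO higher and 1.74% with Gata2cKO lower, and by their summed level. All 7 mesenchymal markers had a row, and their sum ran from 6994 to 8276 TPM in controls and from 8238 to 10145 TPM in Gata2cKO, so that the groups overlapped, and 1 of the 7 rose (0 with median-of-ratios scaling). All 6 mesothelial markers had a row, 4 of 6 rose, and their sum ran from 353 to 456 TPM in controls and from 572 to 668 TPM in Gata2cKO. All 8 markers of duct epithelium had a row, 2 of 8 rose, and their sum ran from 761 to 857 and from 983 to 999 TPM. All 7 smooth muscle markers had a row, 3 of the 6 tested fell, and their sum ran from 819 to 912 and from 601 to 643 TPM. Of endothelial markers 2 of 6 rose, of mast cell markers 3 of 5 and of macrophage markers 1 of 6, and none fell past the threshold. The mast cell marker Kit, named after its values were seen, went the other way. It was at 2.90 ± 0.204 and 2.25 ± 0.208 TPM (SD, n = 3 each; limma adjusted p = 0.119). The authors' deposited table calls 4 of the 5 mast cell markers higher and 1, Kit, lower, where it calls 6.69% of all its genes higher and 6.58% lower. The macrophage call was lost under all 3 other scalings. Over the removals of 1 library the number that rose ran from 1 to 4 for mesothelium, 0 to 4 for duct epithelium, 0 to 3 for endothelium, 2 to 4 for mast cells and 0 to 1 for macrophages and for mesenchyme, and the number of smooth muscle markers that fell ran from 1 to 3. Of 4 tested markers each of neurons and glia, of gonad and of erythroid cells 0 passed by limma. At an unadjusted limma p under 0.05 there were 2 (1 higher and 1 lower), 0 and 2 (both higher). Of all tested genes 27.4% reached that level. Over the removals of 1 library the number past the threshold that rose ran from 0 to 1 for neurons and glia. It ran from 0 to 3 for erythroid cells and stayed at 0 for gonad. None of the markers with a row was at 0 in every library. Their part in the lower Tbx3 and in the gene lists above was not tested.

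The genes whose levels ran most like those of each member were taken from 6963 or 6964 tested genes with a mean of 10 TPM or more, by Pearson's r of log2(TPM + 1) over the 6 libraries, as a description in which libraries share their scaling and group. For Tbx2 these were the small GTPase gene Rasl11b (r = 0.996), Stk19 (0.993) and the histone variant gene H2afv (0.993). None of these 3 passed the test between groups (limma adjusted p = 0.594, 0.468 and 0.459). For Tbx3 they were Stx16 (r = 0.997), Zcchc8 of nuclear RNA decay (0.994) and Plekhg2 (0.992). Stx16, a gene of vesicle fusion, was at 42.6, 42.5 and 45.2 TPM in controls and at 32.1, 38.3 and 31.1 TPM in Gata2cKO. It did not pass (limma adjusted p = 0.0672). Since Stx16 was picked for its likeness to Tbx3, its shared order of libraries follows from that choice and is no further result. For Tbx18 they were Ppp3cb (r = 0.969), Trappc6b (0.959) and Nufip1 (0.946), against Tbx18 values that were all under 0.5 TPM.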

How the data were processed

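Polyadenylated RNA of 6 samples of male mesonephros was sequenced after PicoPure isolation and random-hexamer cDNA synthesis, per the labels' protocols. The authors deposited 1 table of 14366 genes with TPM per library, a unit taken from the values (each library summed to between 997351 and 998844), and with their own log2 fold change, p-value and adjusted p, per the file headers. Per the submitters' processing notes, the tools include STAR 2.7.11a, DESeq2 and DESeq and the build is GRCm38, without saying what each did. How genes were quantified and filtered was not given in the sources used here. TPM keep no depth, so no counting interval is given.

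The 12300 genes that reached 1 TPM in 3 or more libraries were fitted as log2(TPM + 1) with limma 3.58.1 (trend) in R 4.3.3, with group as the only term. P-values were adjusted over all 12300 genes by Benjamini-Hochberg, with a threshold of 0.05, two-sided. A log2 fold change on this scale understates the change of low genes. Of these, 919 passed, 705 higher and 214 lower in Gata2cKO (489 and 404 with median-of-ratios scaling, 621 and 341 with upper-quartile scaling, 436 and 282 without mitochondrial genes). Ratios between members were compared with an exact permutation test (scipy 1.17.1). Positions are from GENCODE release 21 for mouse (GRCm38), matched by identifier for 14345 genes. Promoters are from RefSeq.

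The members and the 18 gene lists were chosen with earlier results of these data known. Named genes are the members, T-box genes with a row, from each other pathway list up to 6 past the threshold and the most abundant, Gata2, genomic neighbours and the 3 genes most like each member. The design foresaw a count test had counts been given. Cell type marker lists are given by counts and sums, apart from the values of Kit. A list gene is not reported here, although it counts in the totals.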

Additional observations from a re-analysis of the deposited data

How the results depend on the processing

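Tbx2 and Tbx3 kept a negative log2 fold change in every alternative run. Tbx3 passed with median-of-ratios scaling (-0.40), upper-quartile scaling (-0.37), removal of mitochondrial genes (-0.40) and array weights (-0.34; limma adjusted p = 0.00429, in a fit that called 4751 genes). The count of T-box genes past the threshold went from 0 to 1 under those 3 scalings and to 3 with array weights, and stayed at 0 in the other 12 alternatives. Median-of-ratios scaling combined with removal of each library was added after seeing the data. It gave log2 fold changes from -0.46 to -0.36 for Tbx3 and from -0.27 to -0.09 for Tbx2. Only without control replicate 1 did they pass there (-0.41 for Tbx3 and -0.27 for Tbx2, limma adjusted p = 0.0209 and 0.0484). Over the 6 removals on deposited TPM the count of all genes past the threshold ran from 116 to 1539, that of T-box genes was 0 in each, and the log2 fold change of Tbx2 ran from -0.21 to -0.024. The Tbx18 log2 fold change moved from -0.09 to -0.34 with a pseudocount of 0.1. The Tbx2 to Tbx18 difference changed sign with pseudocounts of 0.1 (0.22) and 0.5 (0.037), and ran from -0.098 to 0.062 over the removals. The cause of these changes was not tested. Tbx18 has no value with a filter of 5 TPM, and the variance settings bear on tests it did not enter.

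The labels do not say that a replicate number is shared between the groups, so the numbers were not taken as pairs. Deviations of same-numbered libraries from their group means correlated at 0.245, -0.073 and 0.038. Those of differently numbered libraries correlated at -0.277 to 0.215. With 3 libraries per group these values cannot decide on pairing. With the replicate number as a block 774 genes passed, Tbx2 stood at -0.11 (limma adjusted p = 0.544) and Tbx3 at -0.34 (limma adjusted p = 0.106), with no T-box gene past the threshold.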

Other observations

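Retinoic acid, a vitamin A derivative made by aldehyde dehydrogenases, is another signal of urogenital mesenchyme. Of 11 tested retinoic acid genes 1 rose and 0 fell at the limma threshold, a share near that of all tested genes (5.73% higher and 1.74% lower). At an unadjusted limma p under 0.05 there were 4 that rose and 2 that fell, where 27.4% of all tested genes reached that level. The authors' deposited table calls 3 of the 11 higher and 2 lower, where it calls 6.69% of all its genes higher and 6.58% lower. The share therefore depended on the test. The median log2 fold change of the list was 0.04 beside 0.05 for all tested genes, and -0.02 under median-of-ratios scaling. The synthesis gene Aldh1a3 rose 1.76-fold, with means of 7.37 ± 1.38 TPM in controls and 12.98 ± 0.748 TPM in Gata2cKO (SD over 3 libraries; limma adjusted p = 0.0178). It kept its call in 1 of the 6 removals of a library (0.0728 without Gata2cKO replicate 3). The most abundant member was the binding protein gene Crabp2, at 84.3 ± 10.3 and 86.6 ± 10.8 TPM (limma adjusted p = 0.867).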
